A study of Mus musculus with 18 samples.

Results

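The 10 genes described here encode Wnt ligands (Wnt3, Wnt4, Wnt5a, Wnt5b, Wnt7a, Wnt7b, Wnt10a, Wnt10b, Wnt11 and Wnt16), taken by name from a table of 23951 mouse genes. They were followed in 18 RNA-seq libraries of keratinocytes sorted from ear skin, 1 library for each of 3 mice in 6 groups. Bulge hair follicle stem cells (HF-SCs) were sorted as CD45-, CD49f-high, CD34+ cells and basal keratinocytes (b-KCs) as CD45-, CD49f-high, CD34- cells. DKO* mice 814, 815 and 817 carried floxed alleles of both JunB and c-Jun on both chromosomes, the tamoxifen-inducible K5-Cre-ERT transgene and the mT/mG reporter, on a mixed background. Control mice (Co) 810, 825 and 828 carried K5-Cre and the mT/mG reporter with wild-type or heterozygous JunB and c-Jun. Males and females of both kinds were injected at 8 weeks of age with 2 mg tamoxifen on 4 days, and cells were collected at day 7. Tamoxifen, Cre and the reporter are thus shared by all groups. In DKO* mice, recombined cells turn from membrane Tomato to GFP, and the GFP (mutant) and Tom (non-mutant) fractions of both cell types were taken from the same 3 mice. The K5 promoter is active in basal cells of the epidermis and of the outer root sheath, so the deletion covers both sorted cell types. The labels do not state which colour the Co cells had.

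Wnts are secreted, lipid-modified glycoproteins. The acyltransferase Porcn attaches the lipid, the carrier Wls takes the ligand to the cell surface, and Frizzled receptors bind it with Lrp5 or Lrp6, which stabilises β-catenin and switches on Tcf/Lef target genes, or with Ror and other partners, which acts on cell shape and polarity without β-catenin. In skin, Wnts are known for the start of hair follicles, for the growth phase of the hair cycle and for the upkeep of the basal epidermis. Wnt3, Wnt7a, Wnt7b, Wnt10a and Wnt10b usually act through β-catenin. Wnt5a, Wnt5b and Wnt11 are the usual examples of ligands that act without it, and Wnt4 and Wnt16 have been assigned to either route. How the loss of the AP-1 subunits c-Jun and JunB goes with the expression of these ligands, in mutant cells and in their non-mutant neighbours, is the question the groups allow to be asked.

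The values are FPKM, reads scaled by transcript length and library size, so levels can be compared between genes. The steps of low FPKM values gave 16519000 to 26257000 reads per library. Jun ranged from 29.6 to 88.4 FPKM in the 6 GFP libraries, from 163 to 614 in the 6 Tom libraries and from 835 to 1086 in the 6 Co libraries. Junb ranged from 37.2 to 77.5 FPKM in GFP, from 208 to 402 in Tom and from 436 to 772 in Co. The Tom libraries were therefore below Co in both targeted genes, although their label is non-mutant. Cd34, used for the sort, lay between 639.8 and 889 FPKM in Co HF-SCs, between 161 and 228 in GFP HF-SCs, between 259.6 and 319 in Tom HF-SCs and between 0.341 and 2.53 in b-KCs. Of 8 bulge markers, the 7 other than Krt15 averaged 7.22 to 7.49 in Co HF-SCs, 5.35 to 6.36 in the DKO* HF-SC libraries and 2.68 to 3.43 in b-KCs on the log2(FPKM + 1) scale, so that they were lower in DKO* than in Co HF-SCs. The summed FPKM of 12 endothelial markers was 79.5 to 134 in Co HF-SCs, 2.06 to 41.2 in GFP HF-SCs, 785 to 2284 in Tom HF-SCs and 1.67 to 11.5 in the b-KC libraries, and the summed FPKM of 6 cell cycle genes was 25.3 to 32.2 in Co HF-SCs, 167 to 322 in the DKO* HF-SC libraries, 179 to 189 in Co b-KCs and 283 to 535 in the DKO* b-KC libraries. Suprabasal markers (5 genes) summed to 669 to 875 FPKM in Co HF-SCs, 1610.3 to 3382 in the DKO* HF-SC libraries, 6706 to 8312 in Co b-KCs and 3824 to 6913 in the DKO* b-KC libraries. Krt14 was listed at 0 in 3 DKO* b-KC libraries (GFP of mouse 817 and Tom of mice 814 and 817) and at 6838 to 11448 FPKM in the other 3, and Krt15 at 0 in the Co HF-SC library of mouse 828 and at 11261 and 11764 in the other 2. Such a 0 beside 100 FPKM or more in another library of the group can be a failed estimate, and none of the 10 ligands was listed at 0. Without Krt14, the other 5 basal markers summed to 6227 to 6802 FPKM in Co b-KCs, 3124 to 6305 in GFP b-KCs and 4625 to 8260.4 in Tom b-KCs. Fibroblast markers (7 genes) summed to 13.9 to 121 FPKM in HF-SCs and 1.67 to 6.24 in b-KCs. Leukocyte markers (10 genes) summed to 3.10 to 5.08 FPKM in Co HF-SCs, 6.54 to 26.4 in GFP HF-SCs and 7.04 to 19.8 in Tom HF-SCs. In b-KCs they summed to 1.29 to 1.61 FPKM in Co, 4.54 to 5.05 in GFP and 1.83 to 4.66 in Tom. Melanocyte markers (6 genes) summed to 3.75 to 6 FPKM in Co HF-SCs, 7.35 to 17.8 in GFP HF-SCs and 3.66 to 10.3 in Tom HF-SCs, and to no more than 5.49 in b-KCs. The part of these differences in the results below was not tested. A lower level in a bulk sample cannot be told apart as fewer cells expressing the gene or less RNA per cell.

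The ligands fell into 3 ranges of abundance. Wnt4, Wnt7b and Wnt10a were the abundant ones, with 8.74 to 89.0 FPKM in every library, and Wnt3 joined them in b-KCs. Wnt3 ranged from 1.5 to 6.25 FPKM in HF-SCs and from 7.44 to 31.3 in b-KCs. Wnt5a (0.805 to 4.43 FPKM), Wnt5b (0.398 to 7.63), Wnt11 (0.292 to 4.51) and Wnt16 (0.176 to 2.09) were in the low range. Wnt7a reached no more than 0.339 FPKM and Wnt10b no more than 1.39. The implied reads behind a value ran from 504 upwards for Wnt4, Wnt7b and Wnt10a, from 12.8 upwards for Wnt3, Wnt5a, Wnt5b, Wnt11 and Wnt16, and down to 0.997 reads for Wnt7a and 2 for Wnt10b, under the 3 reads that counting error allows for. For Wnt5a and Wnt11, 358 and 364 exon bases are shared with annotated genes on the opposite strand (Gm2670 and Gm8398), and for Wnt7b 38 with AU022754, whose reads cannot be told apart in an unstranded library.

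**Figure D1:**
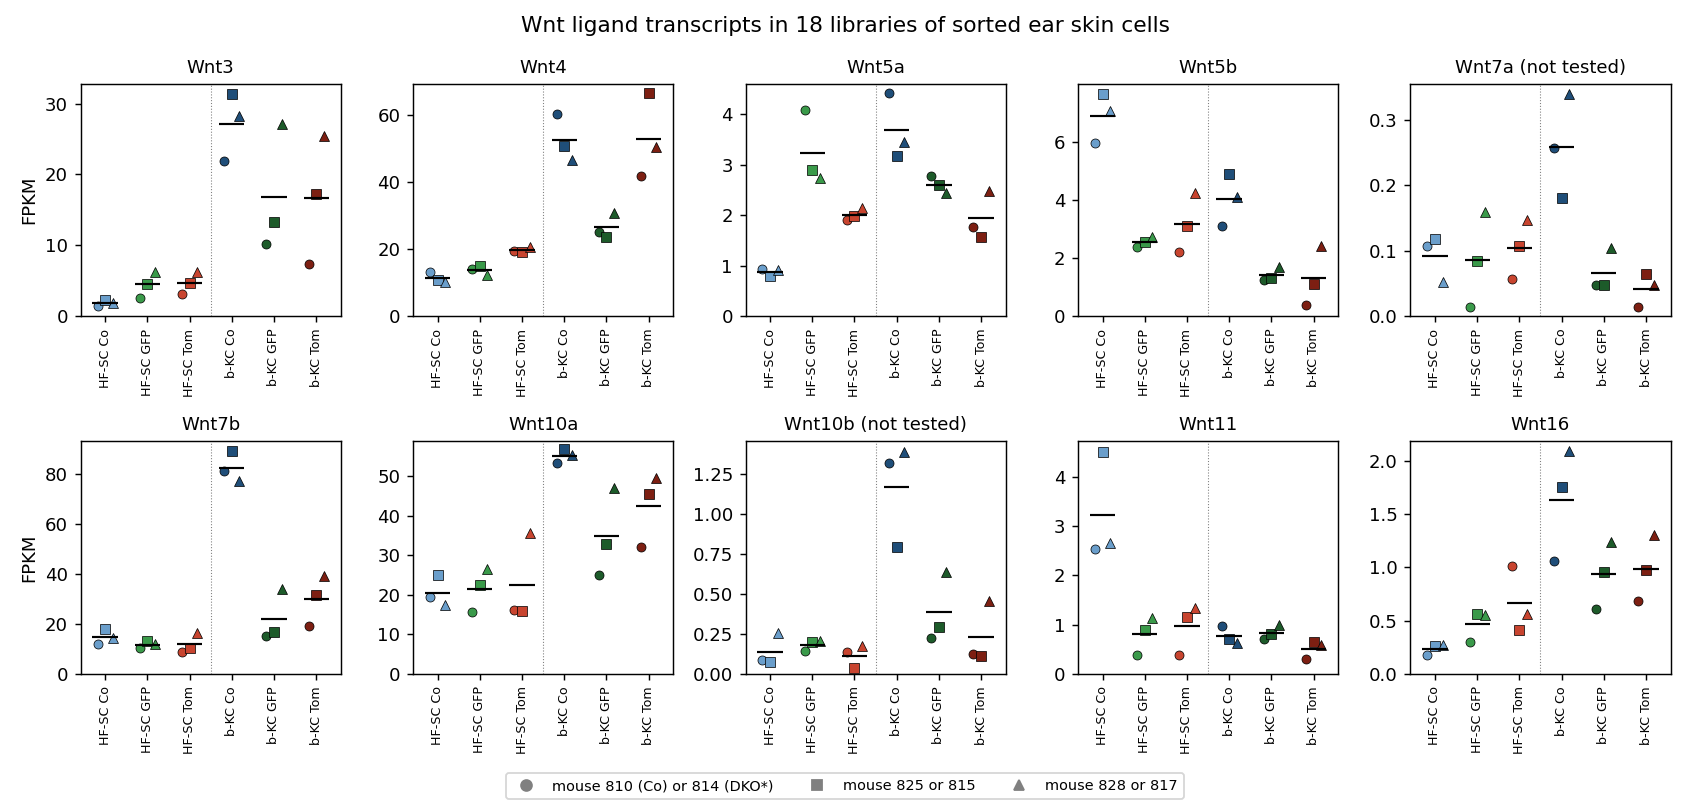
FPKM (y axis, from 0) of the 10 Wnt ligands in 18 libraries, with 1 panel per gene, 6 groups on the x axis, 1 point per mouse and a bar at the group mean (n = 3). Wnt7b stood at 77.1 to 89.0 FPKM in Co b-KCs and between 8.74 and 39.2 in the other 5 groups, while Wnt11 and Wnt5b were highest in Co HF-SCs.

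In the NCBIM37 annotation, the build of the deposited values, the 10 genes lie on 7 chromosomes. The β-catenin ligands Wnt3 (chromosome 11, 103635464 to 103679271), Wnt7a (chromosome 6, 91313975 to 91361357), Wnt7b (chromosome 15, 85365869 to 85412251), Wnt10a (chromosome 1, 74838090 to 74850753) and Wnt10b (chromosome 15, 98602184 to 98608581) are spread over 4 of them. Wnt4 (chromosome 4, 136833404 to 136855641) and Wnt16 (chromosome 6, 22238227 to 22250409) are the members assigned to either route, and those that act without β-catenin are Wnt5a (chromosome 14, 29317936 to 29340633), Wnt5b (chromosome 6, 119382549 to 119494336) and Wnt11 (chromosome 7, 105983622 to 106003705). Wnt10a lies 6196 bases from Wnt6, Wnt10b 11.7 kb from Wnt1 and Wnt3 24.3 kb from Wnt9b. Values are sums over a whole gene, so exons and isoforms cannot be separated.

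Promoter sequence is shown for Wnt5b and Wnt11, the members that were lower than Co in both HF-SC fractions, because c-Jun and JunB are parts of AP-1, which binds TGANTCA, and because Tcf/Lef factors bind CTTTGAA or CTTTGAT. RefSeq (GRCm38.p6) windows from 250 bases before to 50 bases after a start were at hand for 7 of the 10 members, with 10 starts in all. Read on both strands, TGANTCA was found in 1 of these 10 windows and in 7.79% of 32544 promoters of the same length. CTTTGAA or CTTTGAT was found in 2 of the 10 and in 8.67% of all. The start printed was chosen because its window held a match, to AP-1 for Wnt5b and to Tcf/Lef for Wnt11. Other starts of both genes are not printed. The 250 bases before a start are printed 5′ to 3′ on the strand of the gene, with the match in capitals, for Wnt5b at chr6:119544348-119544597 (minus strand, match beginning 191 bases before the start) and for Wnt11 at chr7:98834862-98835111 (plus strand, match beginning 51 bases before the start and reading CTTTGAT on the opposite strand).
Wnt5b, AP-1 letters in capitals: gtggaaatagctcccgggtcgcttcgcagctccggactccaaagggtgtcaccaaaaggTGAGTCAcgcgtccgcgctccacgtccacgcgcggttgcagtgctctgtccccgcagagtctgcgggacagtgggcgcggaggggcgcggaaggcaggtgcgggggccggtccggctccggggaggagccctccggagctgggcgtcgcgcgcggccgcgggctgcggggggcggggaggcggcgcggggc
Wnt11, Tcf/Lef letters in capitals: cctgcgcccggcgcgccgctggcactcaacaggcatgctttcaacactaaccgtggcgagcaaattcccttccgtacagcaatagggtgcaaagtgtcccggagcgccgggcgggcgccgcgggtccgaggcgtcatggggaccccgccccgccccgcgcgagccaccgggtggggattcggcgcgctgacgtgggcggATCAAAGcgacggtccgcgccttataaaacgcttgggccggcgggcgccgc
The other CTTTGAT lies at another annotated start of Wnt5b, 71 bases before it. These letters are a description of the windows, and no binding was measured.

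In control mice, most of the ligands were lower in HF-SCs than in b-KCs. The summed FPKM of the 10 ligands was 59.9 ± 8.14 in Co HF-SCs and 229 ± 10.1 in Co b-KCs (SD, n = 3). Of the 8 members that passed the filter of at least 1 FPKM in at least 3 libraries, all 8 were called (limma, two-sided, adjusted p under 0.05), 6 lower and 2 higher in HF-SCs. Of all 12751 genes tested, 51.9% were called, 27.3% lower and 24.6% higher. Their median log2 difference was -1.35, against -0.06 for all genes. With the 2 members under the filter, 8 of 10 ligands had every Co HF-SC library below every Co b-KC library, which 37.4% of the genes tested did, and 2 had every one above, which 32.2% did.

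Wnt3, an inducer of β-catenin signalling in hair follicles, had 1.5, 2.25 and 1.80 FPKM in the Co HF-SC libraries of mice 810, 825 and 828 and 21.9, 31.3 and 28.3 FPKM in the Co b-KC libraries. All b-KC values were above all HF-SC values, with means 14.7-fold apart (log2 difference -3.30, SE 0.39, adjusted p = 4.67e-06). Wnt7b, the most abundant member in Co b-KCs, had 11.8, 17.9 and 14.3 FPKM against 81.2, 89.0 and 77.1 (-2.43, SE 0.29, adjusted p = 5.60e-06). Wnt10a, which is required for ectodermal appendages, was the most abundant member in Co HF-SCs with 19.4, 24.9 and 17.3 FPKM against 53.5, 56.8 and 55.3 (-1.40, SE 0.29, adjusted p = 0.000895). Within each control mouse the b-KC minus HF-SC difference of Wnt3 was between 3.19 and 3.38 on the log2 scale, so the gap was nearly the same in all 3.

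Wnt4, a ligand of the basal epidermis, had 13.2, 10.8 and 10.2 FPKM in Co HF-SCs and 60.3, 50.8 and 46.6 in Co b-KCs (-2.11, SE 0.16, adjusted p = 4.52e-08). Wnt16 was 0.176, 0.257 and 0.271 FPKM against 1.06, 1.75 and 2.09 (-1.07, SE 0.18, adjusted p = 0.000153), a difference of -2.34 with a pseudocount of 0.1. Wnt5a, the main ligand of the Ror receptors, was 0.929, 0.805 and 0.908 FPKM against 4.43, 3.17 and 3.46 (-1.31, SE 0.15, adjusted p = 2.70e-06). These 3 were thus lower in HF-SCs in every control library.

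Wnt11 and Wnt5b ran the other way. Wnt11, which acts in convergent cell movements, had 2.53, 4.51 and 2.66 FPKM in Co HF-SCs and 0.978, 0.709 and 0.626 in Co b-KCs (1.23, SE 0.22, adjusted p = 0.000218, and 1.91 with a pseudocount of 0.1). Wnt5b had 5.94, 7.63 and 7.06 FPKM in Co HF-SCs and 3.08, 4.88 and 4.09 in Co b-KCs. The Wnt5b groups did not overlap, but the call was marginal (0.66, SE 0.25, adjusted p = 0.0396). It was lost with a pseudocount of 0.1 (adjusted p = 0.121), without the filter (adjusted p = 0.0656) and without mouse 810, 815, 825 or 828 (adjusted p of 0.143, 0.0894, 0.0968 and 0.135).

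Wnt7a and Wnt10b did not pass the filter and entered no test of the main fit. Wnt10b, a ligand of early hair follicle growth, had 1.32, 0.793 and 1.39 FPKM in Co b-KCs and 0.0876, 0.0721 and 0.258 in Co HF-SCs. Wnt7a had 0.258, 0.181 and 0.339 FPKM in Co b-KCs and 0.107, 0.118 and 0.0517 in Co HF-SCs. Both were lower in HF-SCs in every control library, and in a fit of all genes without the filter the adjusted p was 7.4e-05 for Wnt10b and 0.00623 for Wnt7a.

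In mutant HF-SCs (GFP) the ligands summed to 58.7 ± 7.64 FPKM (SD, n = 3). Wnt5a rose, Wnt5b and Wnt11 fell, and the other 5 tested members were not called. This was 3 of 8 members called, 1 higher and 2 lower, against 38.5% of all genes, 18.5% higher and 20.0% lower, so the share called was near that of all genes. The median log2 change of the 8 was 0.15, against -0.05 for all genes. Libraries of 5 of the 10 ligands did not overlap with Co, 3 above and 2 below, where 52.7% of all genes tested did not overlap. All 5 were among the 8 members tested.

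Wnt5a had 4.08, 2.89 and 2.74 FPKM in GFP HF-SCs of mice 814, 815 and 817, against 0.805 to 0.929 FPKM in Co. Every mutant library was above every Co library, with a mean 3.68-fold higher (log2 change 1.16, SE 0.15, adjusted p = 1.99e-05). Leukocyte markers summed to 8.86, 6.54 and 26.4 FPKM in mice 814, 815 and 817, and melanocyte markers to 16.7, 17.8 and 7.35, all above Co. Suprabasal markers (1679 to 3382 summed FPKM) and cell cycle genes (167 to 266) were above Co as well. Endothelial markers and the 7 bulge markers were below Co, and the part of these differences was not tested. Wnt11 had 0.387, 0.901 and 1.13 FPKM, against 2.53 to 4.51 in Co, a 4.02-fold lower mean with no overlap (-1.22, SE 0.22, adjusted p = 0.000401). Wnt5b had 2.38, 2.55 and 2.71 FPKM, against 5.94 to 7.63 in Co, a 2.70-fold lower mean and again no overlap (-1.15, SE 0.25, adjusted p = 0.00226). Wnt11 and Wnt5b, the members higher in HF-SCs than in b-KCs of Co mice, thus fell in libraries where Cd34 was also below Co (161 to 228 against 639.8 to 889 FPKM) and the 7 bulge markers averaged 5.67 to 6.25 against 7.22 to 7.49. These 3 calls held in each alternative fit, and none of them reached an absolute log2 change of 2 on the log2(FPKM + 1) scale, which shrinks changes of low genes. With a pseudocount of 0.1 the changes were 1.75 for Wnt5a and -1.94 for Wnt11.

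Wnt3 in GFP HF-SCs had 2.60, 4.59 and 6.25 FPKM, each above the highest Co value of 2.25. Its spread was wide and the change was not called (0.89, SE 0.39, adjusted p = 0.0837), but it passed with the mouse as a random block (adjusted p = 0.0340), with a pseudocount of 0.1 (adjusted p = 0.0460), with only the compared groups in the fit (adjusted p = 0.0272) and without mouse 814 (adjusted p = 0.00927). Wnt16 had 0.296, 0.563 and 0.555 FPKM, above all Co values (0.176 to 0.271) and not called. Wnt4 (12.1 to 14.8 FPKM), Wnt7b (10.2 to 13), Wnt10a (15.7 to 26.5), Wnt7a (0.0141 to 0.159) and Wnt10b (0.141 to 0.208) overlapped with their Co libraries.

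The Tom fraction of HF-SCs was read against the same Co libraries as the GFP fraction, so both comparisons share their controls. Of the 8 members, 2 were higher and 2 lower in Tom HF-SCs than in Co, against 44.4% of all genes called (22.3% higher and 22.1% lower). Of the 10 ligands, 6 did not overlap with Co, against 49.0% of the genes tested, and all 6 were among the 8 members tested. Wnt5a had 1.90, 1.98 and 2.14 FPKM, above all Co libraries and below all GFP libraries (log2 change from Co 0.68, SE 0.15, adjusted p = 0.00167, and 1.10 with a pseudocount of 0.1). Wnt4 had 19.5, 19 and 20.7 FPKM, against 10.2 to 13.2 in Co (0.75, SE 0.16, adjusted p = 0.00158). Wnt5a and Wnt4 were thus higher in all 3 Tom than in all 3 Co libraries. Endothelial markers summed to 2125, 2284 and 785 FPKM in the Tom libraries of mice 814, 815 and 817, against 79.5 to 134 in Co. Mouse 817, with the lowest of these 3 sums, had the highest Wnt5a and the highest Wnt4 of the 3 Tom libraries. The part of endothelial RNA was not tested.

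Wnt11 fell in Tom HF-SCs, with 0.390, 1.16 and 1.34 FPKM (-1.12, SE 0.22, adjusted p = 0.000697, and -1.75 with a pseudocount of 0.1), and so did Wnt5b, with 2.21, 3.10 and 4.25 FPKM (-0.94, SE 0.25, adjusted p = 0.00765). The Wnt5b call was lost without mouse 815 (adjusted p = 0.0520). The 7 bulge markers averaged 5.35 to 6.36 in these libraries. Wnt3 had 3.12, 4.64 and 6.21 FPKM, all above Co, and missed the threshold (0.96, SE 0.39, adjusted p = 0.0580). It passed with the random mouse block (adjusted p = 0.0212), with a pseudocount of 0.1 (adjusted p = 0.0298), with only the compared groups (adjusted p = 0.0202) and without mouse 814 (adjusted p = 0.00778) or 817 (adjusted p = 0.0351). Wnt16 had 1.02, 0.411 and 0.559 FPKM, all above Co (0.41, SE 0.18, adjusted p = 0.0771; adjusted p = 0.0217 with a pseudocount of 0.1). Wnt7b had 8.74, 10.5 and 16.2 FPKM, with no call (-0.31, SE 0.29, adjusted p = 0.408) unless mouse 817 was left out (adjusted p = 0.0301), and Wnt10a (15.8 to 35.8 FPKM), Wnt7a (0.0571 to 0.147) and Wnt10b (0.0342 to 0.174) overlapped with Co.

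In mutant b-KCs the ligand pool was smaller, 107 ± 34.9 FPKM (SD, n = 3) against 229 ± 10.1 in Co b-KCs. The 5 basal markers other than Krt14 summed to 3124 to 6305 FPKM in these libraries, against 6227 to 6802 in Co. The highest of these sums, 6305 in mouse 817, lay within the Co range, and the part of this difference was not tested. Wnt7b, Wnt4 and Wnt5b fell and no member rose, which was 3 of 8 members called, against 41.6% of all genes (20.3% higher and 21.3% lower). The median log2 change of the 8 was -0.72, against -0.03 for all genes. Of the 10 ligands, 7 had every GFP b-KC library below every Co library, where 31.0% of all genes tested did. These 7 include Wnt7a and Wnt10b, which are under the filter and so outside the genes tested.

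Wnt7b had 14.9, 16.6 and 34.1 FPKM in GFP b-KCs of mice 814, 815 and 817, against 77.1 to 89.0 in Co. Its mean was 3.77-fold lower, without overlap (log2 change -1.96, SE 0.29, adjusted p = 0.000164). Wnt4 had 25.1, 23.7 and 30.8 FPKM, against 46.6 to 60.3 (-0.96, SE 0.16, adjusted p = 0.000382). Wnt5b had 1.25, 1.32 and 1.70 FPKM, against 3.08 to 4.88 (-1.04, SE 0.25, adjusted p = 0.00487), and lost its call without mouse 815 (adjusted p = 0.0516). Each of the 3 was lower in every mutant library than in any Co library.

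Wnt10a had 25, 33 and 47.1 FPKM in GFP b-KCs, all below the Co range of 53.5 to 56.8, and was not called (-0.69, SE 0.29, adjusted p = 0.0693). With the mouse as a random block it passed (adjusted p = 0.0354), as it did with only the compared groups (adjusted p = 0.0385). Wnt3 had 10.2, 13.3 and 27.1 FPKM and overlapped with Co through mouse 817 (-0.76, SE 0.39, adjusted p = 0.131), as did Wnt16 with 0.607, 0.958 and 1.24 FPKM (-0.44, SE 0.18, adjusted p = 0.0651). Leaving out mouse 817 brought the count of lower members from 3 to 6, with adjusted p of 0.00407 for Wnt3, 0.00103 for Wnt10a and 0.0227 for Wnt16, and leaving out mouse 810 gave 0.0277 for Wnt16. Wnt5a (2.44 to 2.79 FPKM) was below all Co libraries (3.17 to 4.43) and not called, and Wnt11 (0.708 to 0.985) overlapped with Co. Without the filter on low values the count was 5, since Wnt10b (0.227, 0.291 and 0.634 FPKM, adjusted p = 0.00277) and Wnt7a (0.0478, 0.0471 and 0.104 FPKM, adjusted p = 0.00410) were then tested and called lower.

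The Tom fraction of b-KCs, compared with the same Co libraries, also had 3 of 8 members called, all lower, against 45.9% of all genes (22.6% higher and 23.3% lower). Of the 10 ligands, 6 lay below Co without overlap, against 34.0% of the genes tested. These 6 include Wnt7a and Wnt10b, which are outside the genes tested. In these libraries the 5 basal markers other than Krt14 summed to 4625 to 8260.4 FPKM, against 6227 to 6802 in Co b-KCs. Cell cycle genes summed to 484 to 535 FPKM against 179 to 189, and the 7 bulge markers averaged 2.68 to 3.02 against 3.40 to 3.43 (log2). The part of these differences was not tested. Wnt7b had 19.3, 31.7 and 39.2 FPKM (-1.48, SE 0.29, adjusted p = 0.000903). Wnt5b had 0.398, 1.10 and 2.41 FPKM, the first 2 of which were its lowest values in the series (-1.20, SE 0.25, adjusted p = 0.00141, and -1.83 with a pseudocount of 0.1). Wnt5a had 1.77, 1.56 and 2.48 FPKM (-0.68, SE 0.15, adjusted p = 0.00178), so it was lower here where it was higher in Tom HF-SCs. Wnt4, by contrast, had 41.7, 66.5 and 50.3 FPKM and overlapped with Co, with a log2 difference of -0.01 and a 95% interval from -0.35 to 0.33.

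Wnt3 in Tom b-KCs had 7.44, 17.2 and 25.4 FPKM and overlapped with Co (-0.81, SE 0.39, adjusted p = 0.103). It passed with the random mouse block (adjusted p = 0.0458) and without mouse 817 (adjusted p = 0.00363). Without mouse 817, Wnt10a (32.1, 45.7 and 49.6 FPKM, -0.39, SE 0.29, adjusted p = 0.281) and Wnt16 (0.680, 0.974 and 1.3 FPKM, -0.40, SE 0.18, adjusted p = 0.0840) were also called, with adjusted p of 0.0320 and 0.0326, so that 6 members were lower. Wnt16 was called without mouse 810 as well (adjusted p = 0.0316). Without the filter the count was 5, with Wnt10b (0.127, 0.114 and 0.454 FPKM, adjusted p = 0.000391) and Wnt7a (0.0149, 0.0638 and 0.0477 FPKM, adjusted p = 0.00130) added. Wnt11 (0.292 to 0.638 FPKM) was not called.

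**Figure D2:**
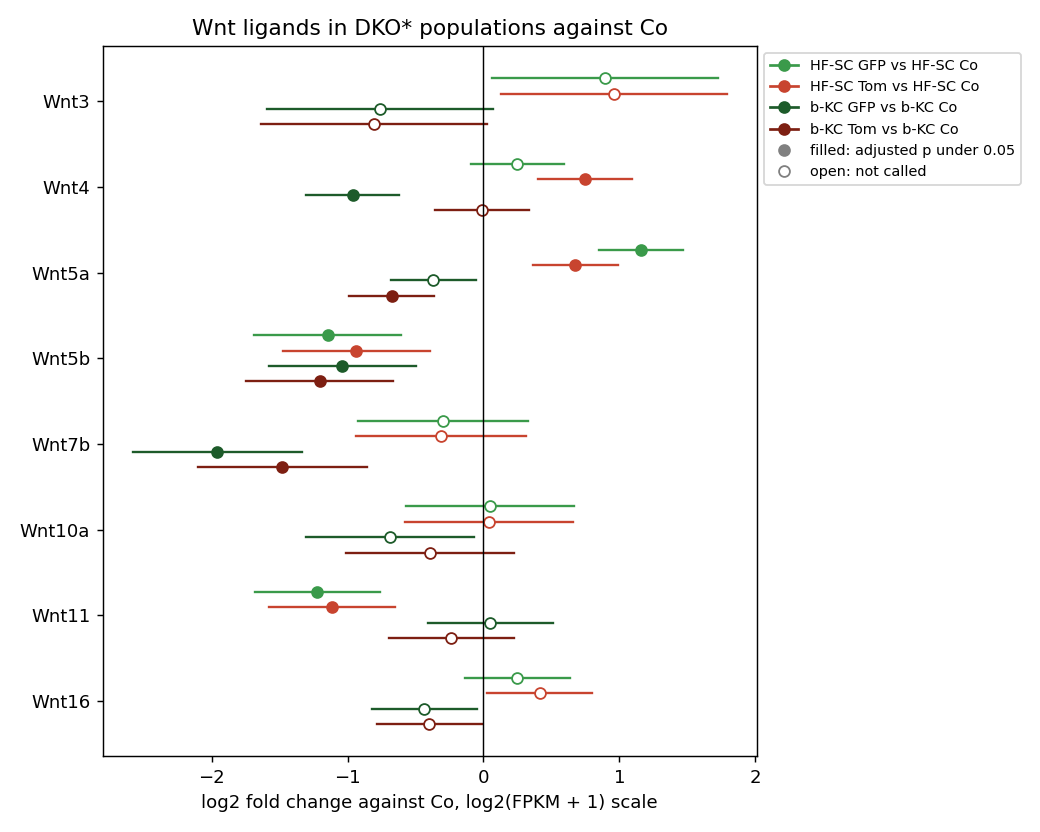
Log2 fold change against Co on the log2(FPKM + 1) scale (x axis) of the 8 tested ligands (y axis) in 4 DKO* populations, with 95% intervals from limma over 3 mice a group and filled points where the adjusted p was under 0.05. Wnt5b was lower in all 4 populations (-0.94 to -1.20), Wnt5a was called higher in both HF-SC fractions and lower in Tom b-KCs, and Wnt7b was called in b-KCs and Wnt11 in HF-SCs.

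Mutant and non-mutant cells of the same mice were compared next. Between GFP HF-SCs and Tom HF-SCs, limma called 0 of 8 members, with 2 at an unadjusted p under 0.05, where 8.63% of all genes were called. These were Wnt5a, higher in GFP in 3 of 3 mice (0.48, SE 0.15, adjusted p = 0.0545), and Wnt4, lower in GFP in 3 of 3 mice (-0.50, SE 0.16, adjusted p = 0.0724). Since the fractions share their mice, the fit with the mouse as a random block is of interest, and it called both (adjusted p = 0.0226 for Wnt5a and 0.0292 for Wnt4), whereas a fixed block on the 6 libraries alone called neither (adjusted p = 0.199 and 0.137). Wnt5a also passed without the trend (adjusted p = 0.0483) and without mouse 817 (adjusted p = 0.0143). In b-KCs, Wnt4 was the 1 member called, lower in GFP (23.7 to 30.8 FPKM) than in Tom (41.7 to 66.5) in 3 of 3 mice (-0.95, SE 0.16, adjusted p = 0.00679), where 1.71% of all genes were called. It stayed called with the fixed block (adjusted p = 0.0472), but not with only these groups in the fit (adjusted p = 0.157) or without mouse 814 (adjusted p = 0.0561) or 815 (adjusted p = 0.286). Wnt4 was thus lower in the GFP than in the Tom library of each mouse in both cell types. In b-KCs, Wnt7b, Wnt10a and Wnt16 were also lower in GFP in 3 of 3 mice, and Wnt10b and Wnt11 were higher in GFP in 3 of 3, with every GFP library above every Tom library for Wnt11 (0.708 to 0.985 against 0.292 to 0.638 FPKM). In mouse 815 the Wnt16 values were as close as 0.958 and 0.974 FPKM. Wnt11 had the opposite direction in HF-SCs, lower in GFP in 3 of 3 mice, with 0.387 against 0.390 FPKM in mouse 814. Wnt10b was higher in GFP in 3 of 3 mice in HF-SCs too. Over the tested members, 5 of 8 had 1 direction in all 3 mice in b-KCs and 3 of 8 in HF-SCs, where 39.2% and 42.1% of all tested genes had. The 7 tested members other than Wnt4 were not called in b-KCs, with 95% intervals of the difference that reached up to 1.10 log2 units from 0.

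The responses of the cell types were then set against each other by interaction terms, the HF-SC change from Co minus the b-KC change from Co. For GFP, 4 of 8 members were called, against 12.5% of all genes, and for Tom 4 of 8, against 15.8%. Both sets share the Co libraries and the DKO* mice. Wnt5a differed in both, by 1.53 (SE 0.21, adjusted p = 0.000315) for GFP and by 1.35 (SE 0.21, adjusted p = 0.000443) for Tom. On the log2 scale, its b-KC minus HF-SC difference within a mouse was 1.21 to 1.49 in Co, -0.42 to -0.12 in GFP and -0.22 to 0.15 in Tom, so that every Co mouse lay above every DKO* mouse. Wnt4 differed by 1.21 (SE 0.23, adjusted p = 0.00289) for GFP. For Tom its term was 0.76 (SE 0.23, adjusted p = 0.0332), and this was lost without mouse 810, 814, 825 or 828 (adjusted p of 0.0750, 0.133, 0.106 and 0.0865) and with only the compared groups (adjusted p = 0.0522).

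Wnt7b, which fell in GFP b-KCs and was not called in GFP HF-SCs, had a GFP term of 1.66 (SE 0.41, adjusted p = 0.0156), which was lost without mouse 810, 815 or 828 (adjusted p of 0.0843, 0.169 and 0.0644). For Tom it was 1.17 (SE 0.41, adjusted p = 0.0703), and passed with the random mouse block (adjusted p = 0.0129) and without mouse 817 (adjusted p = 0.00839). Wnt11 went the other way, with a term of -1.28 (SE 0.31, adjusted p = 0.0127, and -2.05 with a pseudocount of 0.1) for GFP, lost without mouse 815 (adjusted p = 0.0898) or 825 (adjusted p = 0.0658), and of -0.88 (SE 0.31, adjusted p = 0.0644) for Tom, called with the block (adjusted p = 0.0157) and without mouse 817 (adjusted p = 0.0378). Against Co, Wnt7b was called lower in both b-KC fractions and Wnt11 in both HF-SC fractions.

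Wnt3 differed by 1.77 (SE 0.55, adjusted p = 0.0402) for Tom, and this call was lost without mouse 810, 815, 825 or 828 (adjusted p of 0.11, 0.156, 0.111 and 0.133) and without the filter (adjusted p = 0.0646). For GFP the Wnt3 term was 1.65 (SE 0.55, adjusted p = 0.0628), and passed with the block (adjusted p = 0.00584), with only the compared groups (adjusted p = 0.0295) and without mouse 814 (adjusted p = 0.0317) or 817 (adjusted p = 0.00537). Wnt16 differed by 0.81 (SE 0.26, adjusted p = 0.0423, and 1.79 with a pseudocount of 0.1) for Tom, lost without mouse 814, 815, 825 or 828 (adjusted p of 0.169, 0.119, 0.131 and 0.156) and with only the compared groups (adjusted p = 0.0584). For GFP its term was 0.69 (SE 0.26, adjusted p = 0.0927), called with the block (adjusted p = 0.0426) and without mouse 817 (adjusted p = 0.0466). Wnt10a had a GFP term of 0.74 (SE 0.41, adjusted p = 0.253), which passed without mouse 817 alone (adjusted p = 0.0353). Wnt5b was called in neither, with terms of -0.11 (95% interval -0.87 to 0.66) for GFP and 0.27 (-0.49 to 1.03) for Tom. In the fit without the filter, Wnt10b had terms of 0.70 (adjusted p = 0.0312) for GFP and 0.78 (adjusted p = 0.0134) for Tom, and Wnt7a of 0.23 (adjusted p = 0.0730) and 0.29 (adjusted p = 0.0204).

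**Figure D3:**
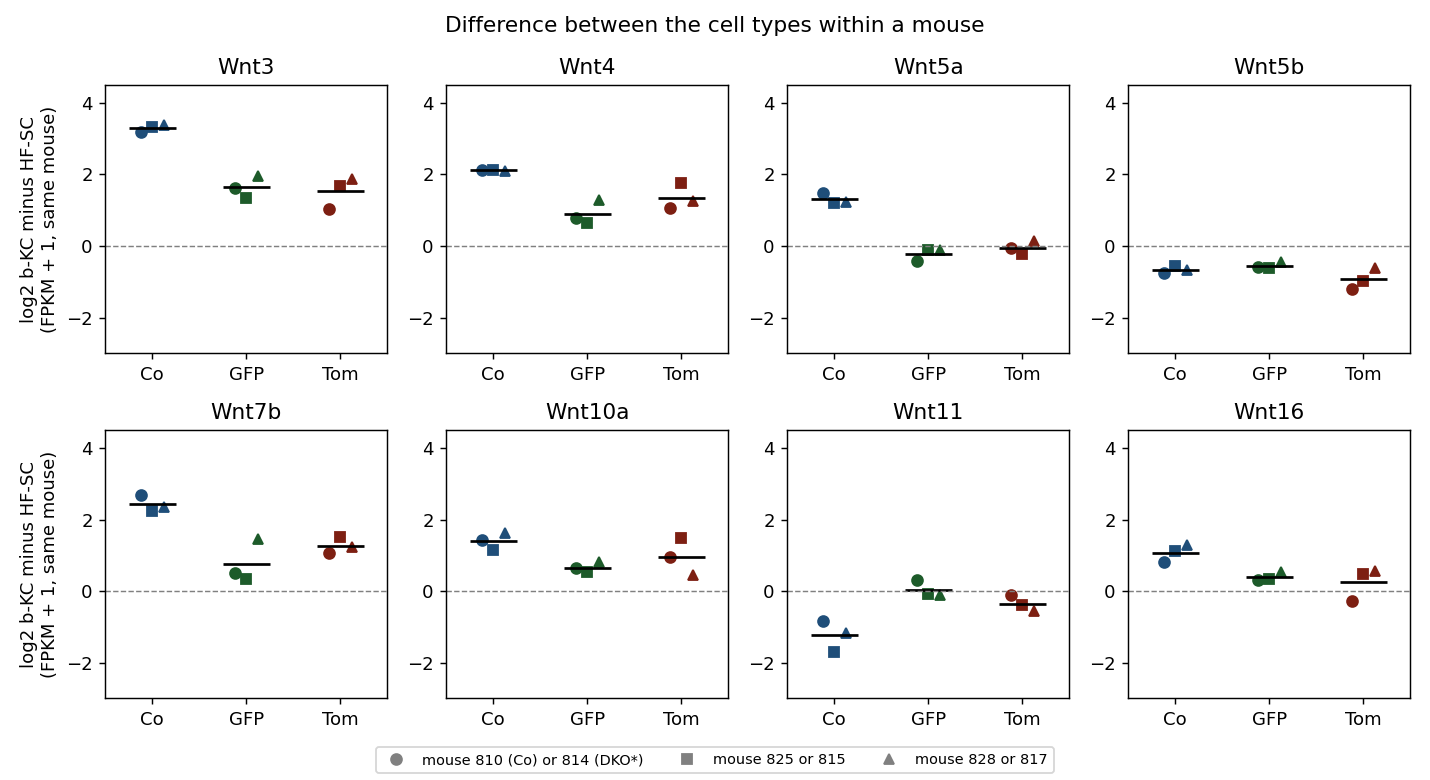
Difference between b-KCs and HF-SCs of the same mouse on the log2(FPKM + 1) scale (y axis, 0 dashed) for the 8 tested ligands in Co, GFP and Tom cells (x axis), with 1 point per mouse and a bar at the mean of 3. Wnt3, for example, stood at 3.19 to 3.38 in Co and at 1.03 to 1.96 in GFP and Tom, and Wnt5a fell from 1.21 to 1.49 in Co to between -0.42 and 0.15.

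The order of the levels over the 6 groups differed between ligands. Wnt7b and Wnt10a were highest in Co b-KCs, apart from Tom b-KCs as the next group, and the 4 DKO* and HF-SC groups below overlapped with their neighbours. For Wnt3, the 3 b-KC groups overlapped from 27.2 ± 4.80 FPKM in Co to 16.7 ± 8.97 in Tom, the Tom HF-SCs and GFP groups overlapped at 4.66 ± 1.54 and 4.48 ± 1.83, and Co HF-SCs stood apart at 1.85 ± 0.376 (SD, n = 3 each). Wnt5a ran from Co b-KCs (3.68 ± 0.661) through GFP HF-SCs (3.24 ± 0.734) and GFP b-KCs (2.61 ± 0.174), which overlapped in turn, to Co HF-SCs, apart at 0.880 ± 0.0664. Wnt5b was highest in Co HF-SCs (6.88 ± 0.858) and lowest in Tom b-KCs (1.3 ± 1.02), which overlapped with GFP b-KCs (1.42 ± 0.241). Wnt11 stood apart in Co HF-SCs (3.24 ± 1.11) and its other 5 groups, from 0.962 ± 0.503 down to 0.507 ± 0.188, overlapped with their neighbours.

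Wnt7b supplied 36.0% ± 1.04 of the summed FPKM of the 10 ligands in Co b-KCs, 19.9% ± 2.96 in GFP b-KCs and 20.2% ± 2.29 in Tom b-KCs (SD, n = 3), and lay below the Co share in all 6 DKO* b-KC libraries. Wnt4 supplied 23.0% ± 3.02 in Co b-KCs and 36.6% ± 6.29 in Tom b-KCs. In HF-SCs, Wnt10a supplied 34.1% ± 2.26 in Co, 36.3% ± 4.92 in GFP and 33.0% ± 6.92 in Tom, and it had the highest share in each Co and GFP library. In Tom HF-SCs, Wnt4 was ahead of Wnt10a in mice 814 (36.6% against 30.3%) and 815 (33.5% against 27.9%) and Wnt10a in mouse 817 (40.9% against 23.6%). The 3 ligands that usually act without β-catenin took other places, with Wnt5b at 11.5% ± 1.18 in Co HF-SCs and 4.37% ± 0.347 in GFP HF-SCs, Wnt11 at 5.31% ± 1.05 and 1.33% ± 0.503, and Wnt5a at 1.5% ± 0.290 and 5.70% ± 2.14. These shares were not tested.

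**Figure D4:**
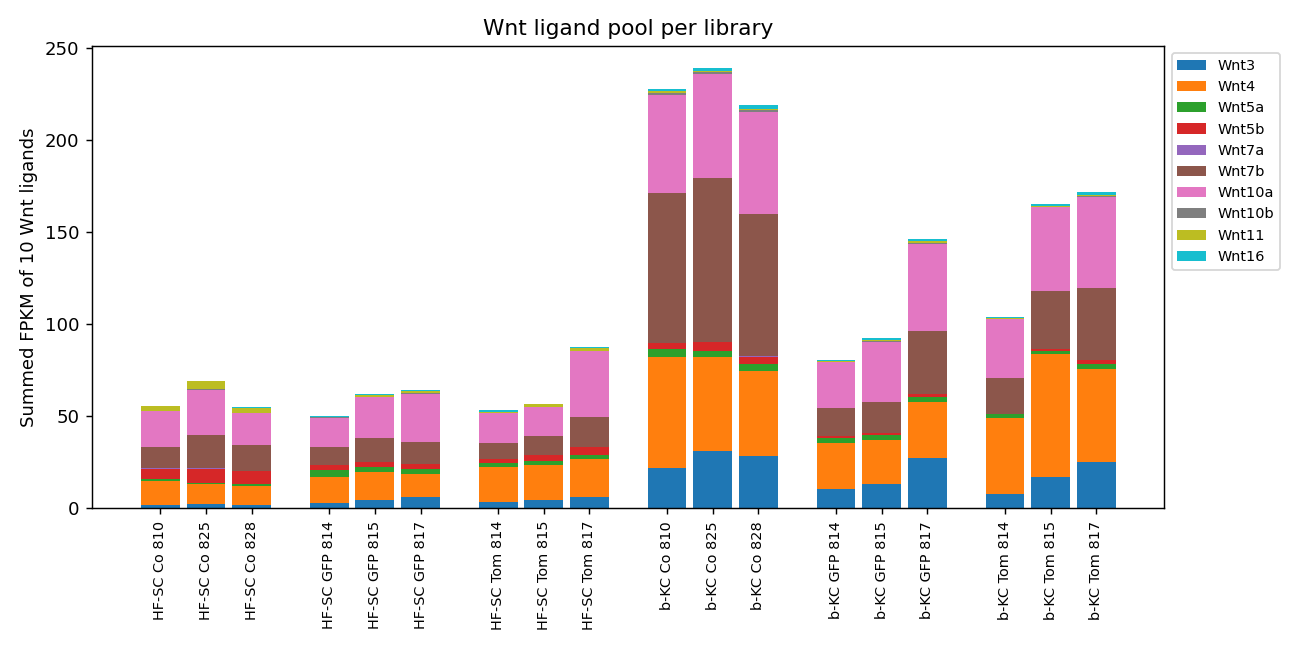
Summed FPKM of the 10 Wnt ligands per library (y axis), stacked by ligand, for 18 libraries (x axis). The Co b-KC libraries reached 219 to 239 FPKM, the DKO* b-KC libraries 80.8 to 172 and the 9 HF-SC libraries no more than 87.4.

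Among the other Wnt ligands, 9 were in the table and 2 passed the filter. Wnt3a fell in b-KCs, from 11.5 ± 0.463 FPKM in Co to 2.19 ± 1.27 in GFP (-2.04, SE 0.27, adjusted p = 6.41e-05) and 6.18 ± 2.01 in Tom (-0.83, SE 0.27, adjusted p = 0.0207), and it was lower in GFP than in Tom b-KCs (-1.21, SE 0.27, adjusted p = 0.0338). In HF-SCs, Wnt3a was 0.828 ± 0.257 FPKM in Co and 2.66 ± 1.25 in Tom (0.96, SE 0.27, adjusted p = 0.00990). Wnt6, the neighbour of Wnt10a, fell in Tom b-KCs, from 2.97 ± 0.469 to 0.870 ± 0.388 FPKM (-1.10, SE 0.19, adjusted p = 0.000294).

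The rest of the pathway was described with a list of 81 genes, of which 61 passed the filter. Against Co, 4 were higher and 21 lower in GFP HF-SCs, 5 and 28 in Tom HF-SCs, 2 and 30 in GFP b-KCs, and 1 and 31 in Tom b-KCs, with medians of -0.29, -0.37, -0.53 and -0.62 on the log2 scale, where the medians of all genes lay between -0.05 and -0.02. Of all genes, 18.5% were called higher and 20.0% lower in GFP HF-SCs, 22.3% and 22.1% in Tom HF-SCs, 20.3% and 21.3% in GFP b-KCs, and 22.6% and 23.3% in Tom b-KCs, and these shares are the background of the counts of each gene group that follows. Of the genes for ligand release, Porcn rose in all 4 populations, from 8.52 ± 1.27 FPKM in Co HF-SCs to 18.6 ± 6.02 in GFP HF-SCs (1.00, adjusted p = 0.0136) and 16.4 ± 2.02 in Tom HF-SCs (0.87, adjusted p = 0.0246), and from 6.28 ± 0.825 in Co b-KCs to 18.3 ± 7.71 in GFP b-KCs (1.32, adjusted p = 0.00267) and 13.5 ± 4.05 in Tom b-KCs (0.96, adjusted p = 0.0149). Wls fell in GFP b-KCs, from 183 ± 14.4 to 111 ± 27.8 FPKM (-0.74, adjusted p = 0.00648).

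Of 16 receptor genes, all tested, 1 was higher and 6 lower in GFP HF-SCs, 2 and 9 in Tom HF-SCs, 0 and 6 in GFP b-KCs, and 0 and 7 in Tom b-KCs, and the 7 of 16 called in GFP HF-SCs were near the 38.5% of all genes called there. The Frizzled gene Fzd10 rose in GFP HF-SCs from 1.26 ± 0.150 to 3.95 ± 0.474 FPKM (1.13, adjusted p = 3.90e-05), while Ror1 and Ror2, receptors for Wnt5a, fell there (-1.15 and -0.85, adjusted p of 0.0233 and 0.00465). Ror1 also fell in GFP b-KCs (-1.87, adjusted p = 0.00128) and Tom b-KCs (-1.71, adjusted p = 0.00181). Fzd4 rose in Tom HF-SCs (1.74, adjusted p = 6.70e-06), in the libraries whose endothelial markers were highest.

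The R-spondin list held 9 genes, of which 6 were tested. They were Rspo3, Lgr4, Lgr5 and Lgr6, an R-spondin and receptors for R-spondins, which raise the response to Wnts, and Rnf43 and Znrf3, which remove Frizzled receptors from the membrane and lower that response. Of these 6, 2 were called lower in GFP HF-SCs, 3 in Tom HF-SCs, 5 in GFP b-KCs and 6 in Tom b-KCs, with none higher, where 20.0%, 22.1%, 21.3% and 23.3% of all genes were called lower. Rnf43 and Znrf3 made up 0, 1, 2 and 2 of these calls, with Rnf43 at -0.76 in Tom HF-SCs, -1.32 in GFP b-KCs and -1.36 in Tom b-KCs and Znrf3 at -0.77 in GFP b-KCs. In Tom b-KCs, Lgr5 fell by 1.23 (adjusted p = 0.00274). Lgr5, a bulge marker, had 158 ± 16.0 FPKM in Co HF-SCs, 50.3 ± 16.4 in GFP (-1.68, adjusted p = 0.000292) and 44.4 ± 23.8 in Tom (-1.93, adjusted p = 6.90e-05). In b-KCs, Rspo3 fell by 1.55 in GFP (adjusted p = 3.84e-05) and by 1.78 in Tom (adjusted p = 6.43e-06), and Lgr6 fell by 1.32 (adjusted p = 0.0213) and 2.08 (adjusted p = 0.00112).

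Of 7 secreted or membrane-bound antagonists tested, 4 were called lower in each HF-SC fraction, 2 in GFP b-KCs and 4 in Tom b-KCs, with none higher, against the same shares of all genes (20.0% and 22.1% in HF-SCs, 21.3% and 23.3% in b-KCs). In GFP HF-SCs these were Sostdc1 (-1.99, adjusted p = 8.39e-06), Dkk3 (-1.23, adjusted p = 0.00150), Sfrp1 (-1.21, adjusted p = 0.000291) and Wif1 (-0.80, adjusted p = 0.00869), and the same 4 fell in Tom HF-SCs. Apcdd1 fell in GFP b-KCs (-1.39, adjusted p = 0.00286) and Tom b-KCs (-2.73, adjusted p = 9.70e-06). Of the 4 Tcf/Lef genes, Tcf7l2 was lower in all 4 populations (-0.70 to -0.97) and the other 3 were not called.

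Genes that respond to β-catenin were lower where called, 3 of 7 tested in GFP HF-SCs, 4 in Tom HF-SCs, 5 in GFP b-KCs and 4 in Tom b-KCs, where 20.0%, 22.1%, 21.3% and 23.3% of all genes were called lower. Axin2, the most used read-out of the pathway, had 2.94 ± 0.686 FPKM in Co HF-SCs, 0.955 ± 0.240 in GFP (-1.0, adjusted p = 0.00430) and 1.14 ± 0.804 in Tom (-0.93, adjusted p = 0.00625). Nkd2, a feedback inhibitor, fell in b-KCs from 11.4 ± 1.09 FPKM in Co to 1.39 ± 0.196 in GFP (-2.38, adjusted p = 5.17e-07) and 0.360 ± 0.0747 in Tom (-3.19, adjusted p = 2.50e-08). Of 10 intracellular components, 1 was higher (Csnk1a1, 0.61, adjusted p = 0.00333) and 2 lower in GFP HF-SCs, and 0 higher and 4 lower in each of the other 3 populations, with Dvl2 and Btrc lower in all 4 populations. In either direction, 38.5% of all genes were called in GFP HF-SCs, 44.4% in Tom HF-SCs, 41.6% in GFP b-KCs and 45.9% in Tom b-KCs. The numbers of components called were near these shares. Of 7 planar polarity genes, 1 was higher and 3 lower in each HF-SC fraction, 1 higher and 5 lower in GFP b-KCs, and 0 higher and 3 lower in Tom b-KCs. Prickle1 rose in GFP HF-SCs (1.07, adjusted p = 0.000416), while Prickle2 fell there (-1.51, adjusted p = 0.000226).

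The genes most like each ligand over the 18 libraries were found by Pearson's r of log2(FPKM + 1). The points share 6 mice and 6 groups, so r is a description. Wnt3 was followed by Npl (r = 0.978) and Tnfrsf19 (0.976), a gene of the β-catenin response list, and Wnt4 by Klrg2 (0.974) and Abcb9 (0.964). Wnt7b was followed by Mycl (0.970) and Plbd2 (0.967), Wnt10a by Ezr (0.957) and Srebf1 (0.953) and Wnt16 by Sox6 (0.915) and Arl4d (0.912). For the ligands that usually act without β-catenin, the closest genes were Chl1 (0.904) and Reep3 (0.871) for Wnt5a, Pcbp4 (0.971) and Csad (0.964) for Wnt5b, and Grik1 (0.920) and Kirrel2 (0.920) for Wnt11. No gene appeared beside more than 1 ligand.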

How the data were processed

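RNA from 18 sorted populations was amplified (SMART-Seq v4, Nextera XT) and sequenced without strand information. Per the labels and methods, the authors aligned single-end reads of 51 bases to NCBI37/mm9 using TopHat 2.0.10 and Bowtie 1.0.0 (2 mismatches and multiple hits allowed) and ran Cufflinks 2.2.1. The deposited FPKM values, 1 per gene and library, were scaled by the authors to transcript length and to library size, and any further scaling is not given in the sources used here. Multiple hits make reads of near-identical genes uncertain. Every column was matched to a sample by its name.

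From the FPKM values, the 12751 of 23951 genes that reached 1 FPKM in 3 or more libraries were tested on log2(FPKM + 1), a scale that understates changes of low genes, with limma 3.58.1 in R 4.3.3 (1 mean per group, eBayes with a trend, two-sided, all 18 libraries sharing 1 spread). The Benjamini-Hochberg adjustment ran over all genes within each of 9 comparisons, with calls at an adjusted p under 0.05. The limma fit was also checked on simulated data with known changes in a single comparison and independent noise, without shared mice. Depth was inferred from FPKM steps in 7744 genes with 1 transcript, where 75.6% to 80.6% of the low values were whole to within 0.1 reads. Reads are not independent molecules, so 3 reads as a floor covers counting error only. Tables and plots were made with Python 3.11.15, pandas 2.3.3, numpy 2.4.6 and matplotlib 3.10.9.

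Mouse numbers in the labels show that the 4 DKO* populations came from the same 3 mice, and both Co populations from 3 others. Deviations from group means of same-mouse libraries correlated with r from 0.0838 to 0.700. The mouse was therefore also fitted as a random block (limma's duplicateCorrelation, 0.274) and, within a set of mice, as a fixed block. Other alternatives were another pseudocount, no filter, stricter thresholds, fits of the compared groups alone, no trend, rescaled libraries and each mouse left out.

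The ligands and the gene lists were chosen with earlier results of these data known. All members are named. Fold changes are given where a call passed or an alternative changed it, and for Wnt4 in Tom b-KCs and for the Wnt5b response terms with intervals. From each pathway list at most 4 called genes per comparison could be named, by size of change, and the 2 genes with the highest r per ligand.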

Additional observations from a re-analysis of the deposited data

Results flagged for a closer look

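Terms for which the HF-SC change from Co differed from the b-KC change were singled out. All are in log2 units, HF-SC minus b-KC, from limma. Among GFP cells they were 1.21 for Wnt4, 1.53 for Wnt5a, 1.66 for Wnt7b and -1.28 for Wnt11. Among Tom cells they were 1.77 for Wnt3, 0.76 for Wnt4, 1.35 for Wnt5a and 0.81 for Wnt16. Wnt5a was called with opposite signs within the Tom fraction, at 0.68 for HF-SCs against -0.68 for b-KCs, while its GFP HF-SC change was 1.16. Wnt4 was called with opposite signs in different fractions, 0.75 in Tom HF-SCs and -0.96 in GFP b-KCs. The Wnt5a terms of both fractions and the Wnt4 term of GFP cells passed in each refit, and the other 5 were lost without at least 1 mouse. Groups of 3 libraries were not screened for outlying libraries.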

How the results depend on the processing

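Of 30 called values of single ligands, none changed sign in the alternatives run. Over 47 values of single ligands, 669 alternative values kept the side of the threshold in 568 cases, lost the call in 64 and gained it in 37. With an adjusted p under 0.01 and an absolute log2 change of at least 2, the number of ligands called was 3 in Co HF-SCs against Co b-KCs and 0 in each of the other comparisons, on the log2(FPKM + 1) scale. That scale shrinks changes of low genes, and with a pseudocount of 0.1 the value of 9 called results moved by over 1.5 times, as given beside them. With an adjusted p under 0.01 alone, 2 ligands remained called for the GFP response and 1 for the Tom response, from 4 each. Without the filter, 5 were called in GFP b-KCs and 5 in Tom b-KCs, from 3 each, because Wnt7a and Wnt10b were then tested, and 5 for each response, from 4 each, with Wnt10b called in both, Wnt7a for Tom, and Wnt3 lost for Tom. With only the compared groups in the fit, 0 rather than 1 was called between GFP b-KCs and Tom, and 2 rather than 4 for the Tom response. Without the trend, 1 rather than 0 was called between GFP HF-SCs and Tom, and with the mouse as a random replicate block 2. The block gave 6 rather than 4 for each response and changed calls of single ligands as given beside them, and no other call. The cause was not tested except where stated. With each mouse left out in turn, the count ranged from 7 to 8 for Co HF-SCs against Co b-KCs, 3 to 4 for GFP HF-SCs, 3 to 6 for Tom HF-SCs, 2 to 6 for GFP b-KCs, 3 to 6 for Tom b-KCs, 0 to 1 for both GFP against Tom comparisons, 2 to 7 for the GFP response and 1 to 6 for the Tom response, and the highest counts of 6 and 7 came without mouse 817. Rescaling the libraries changed no call and moved the median of all genes by less than 0.1. Depth limits Wnt7a and Wnt10b, whose values rest on 0.997 to 21.9 and 2 to 68.1 reads.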

Other observations

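Mouse 817 was chosen for a description after its values were seen. In GFP b-KCs it had the value nearest to the Co mean for 6 of the 8 tested ligands, and in Tom b-KCs for 7 of 8. In GFP HF-SCs and Tom HF-SCs it was nearest for 4 and 3 of 8. Its Jun level was the lowest of the 3 mice in the GFP libraries (30.4 FPKM against 69.6 and 88.4 in HF-SCs, 29.6 against 53.9 and 65.4 in b-KCs) and the highest in the Tom libraries (614 against 308 and 332, and 400.4 against 163 and 229). The summed FPKM of the 10 ligands was 146 in its GFP b-KC library and 80.8 and 92.5 in those of mice 814 and 815. Whether these values are connected was not tested.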
